A study of Mus musculus with 6 samples.

Results

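Ndnf is the gene for neuron-derived neurotrophic factor. It had the largest fall in mean signal of all genes measured when hedgehog signalling was raised in the mesenchyme of the embryonic mouse stomach. It is 1 gene of 19938 and was chosen by that value, the difference of the group means over all 6 arrays, so its levels and its difference are given here as a description, with no test. The values are log2 array signals from RNA of whole stomach at E13.5 (the embryonic day), on 3 arrays of wild type and 3 of Nkx3.2Cre;R26-SmoM2 embryos, called SmoM2 here. SmoM2 is a form of the receptor Smoothened that signals without hedgehog ligand. It was expressed from the Rosa26 locus in cells that had made Cre from Nkx3-2, a gene active in stomach mesenchyme and not in its epithelium, so the mutation acts in part of the tissue while the array measured all of it. The labels do not tell whether each replicate was its own embryo or a pool, so the p-values measure only the spread between these samples. In SmoM2 that spread may be technical, though Y-linked signal differed there too, as for the gene Eif2s3y (8.58, 8.95 and 9.19 on SmoM2 1 to 3). In wild type the spread was not technical alone, since those arrays differ in Xist and Y-linked signal, as given below. Ndnf was read by a single probe set (10538802), annotated to that symbol alone.

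Ndnf encodes a secreted glycoprotein with fibronectin type III domains. It was first described as a factor that helps cultured neurons survive, migrate and extend neurites, and it is also made by mesenchymal cells of the embryo. The human protein dampens FGF receptor signalling, and loss-of-function variants are found in people with congenital hypogonadotropic hypogonadism, in whom the neurons that make gonadotropin-releasing hormone fail to migrate. Its fly homologue, nord, is induced by hedgehog and modulates BMP signalling. In the gut, hedgehog proteins from the epithelium signal to the surrounding mesenchyme, where Ptch1, Hhip and Gli1 are induced.

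The wild type arrays did not all hold the same embryos. Xist, transcribed from the inactive X chromosome of females, was at 7.11 on wild type 1 and between 11.43 and 12.37 on the other 5 arrays. The signals of the Y-linked genes Eif2s3y, Kdm5d and Uty were high on wild type 1, where they ran from 10.29 to 10.43, and lower on wild type 3 and the SmoM2 arrays, where they ran from 8.58 to 9.38. Wild type 2 lay between, from 9.75 to 10.09, with high Xist as well. The difference and rank of Ndnf are therefore also given without wild type 1 and against wild type 3 alone, while its spread, gap and likeness to other genes rest on all 6 arrays. The pathway readouts followed the labels. Hhip, a hedgehog-binding membrane protein, rose 2.43-fold (limma adjusted p = 0.000175) and Ptch1, the hedgehog receptor, rose 1.40-fold (adjusted p = 0.0174), while Gli1 (log2 difference 0.42, adjusted p = 0.0727), Smo (0.35, adjusted p = 0.154) and Nkx3-2 (-0.12, adjusted p = 0.648) did not pass. The Ptch1 call was lost when wild type 1, wild type 2 or SmoM2 3 was left out (adjusted p of 0.102, 0.0745 and 0.0749).

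On the wild type arrays Ndnf stood at 9.82, 9.62 and 9.66 (log2 signal, replicates 1 to 3). On the SmoM2 arrays it stood at 8.16, 8.52 and 8.37. All 3 SmoM2 values lay below all 3 wild type values, with wild type 1 the highest and SmoM2 1 the lowest of the 6. The groups were separated by 1.10 between the lowest wild type and the highest SmoM2 array, which was wider than the range within wild type (0.19) or within SmoM2 (0.36). On the linear scale the same signals were 902.0, 789 and 810 in wild type and 287, 367 and 331 in SmoM2.

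**Figure D1:**
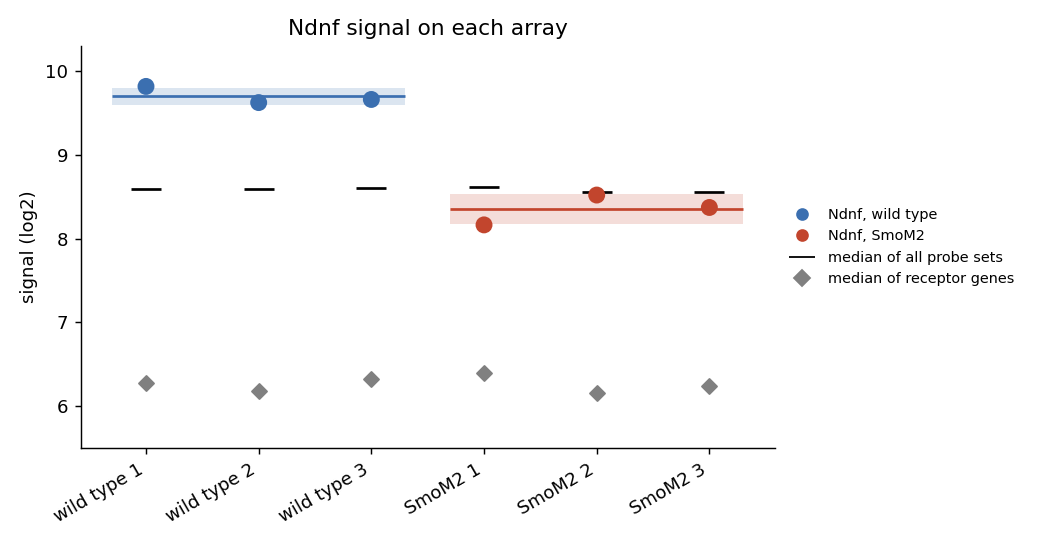
The plot shows the Ndnf signal (log2, vertical axis) on each of the 6 arrays (horizontal axis), with the group mean as a line and ± 1 SD as a band, the median of all probe sets as a dash and the median of olfactory and vomeronasal receptor genes as a diamond. The wild type values (9.62 to 9.82) lie above the array medians and the SmoM2 values (8.16 to 8.52) just below them, and both lie above the receptor genes.

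The group means were 9.70 ± 0.10 in wild type and 8.35 ± 0.18 in SmoM2 (SD, n = 3). The difference, SmoM2 minus wild type, was -1.35 on the log2 scale with a moderated standard error of 0.10, a 2.55-fold lower signal, or 39.3% of the wild type signal. It was 9.26 times the pooled SD within groups (0.15). Among the 19938 genes 131 were called lower in limma (0.657%) and in 2012 every SmoM2 array was below every wild type array (10.1%). The Ndnf arrays did not overlap either, and nothing is read from this, since the gene was chosen on the same contrast.

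Ndnf was a gene of middling signal whose place in the distribution moved down. Of all genes, 64.5%, 61.2% and 62.6% had a lower signal than Ndnf on wild type 1 to 3, and 29.9%, 40.4% and 35.9% on SmoM2 1 to 3. Averaged over the 6 arrays Ndnf was at 9.03, which ranked 9967 of 19938 genes. Probe sets differ in how brightly they bind, so these shares place the signal on the array and do not rank transcript amounts.

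The lower signal in SmoM2 was still above that of most genes taken as silent in stomach. The medians of 1190 olfactory and vomeronasal receptor genes ran from 6.16 to 6.40 over the arrays. Ndnf exceeded that median by 3.34 to 3.54 on the wild type arrays and by 1.76 to 2.36 on the SmoM2 arrays. Of the 1190 receptor genes, 1 had a higher wild type mean than Ndnf and 35 had a higher SmoM2 mean. RMA compresses dim signals, and how far this affected the SmoM2 values of Ndnf was not tested.

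The replicates of Ndnf were more spread than those of most genes. Its pooled SD was above that of 78.5% of genes, for which the median was 0.10. In wild type its SD was above that of 62.4% of genes and in SmoM2 above that of 85.7%. The widest distance within a group was between SmoM2 1 and SmoM2 2, at 0.36, where the median gene differed by 0.16. The closest pair was wild type 2 and 3, which differed by 0.037 in Ndnf and by 0.11 in the median gene.

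By difference of means Ndnf ranked 1 among decreases and 3 among changes in either direction, after AI506816, a long noncoding RNA (3.47), and Xist (1.66). Hhip followed closely, with a rise of 1.28. The median absolute difference over all genes was 0.0705. The next largest falls were Epha3, an ephrin receptor that guides axons and cells (-1.10), Dcx, a microtubule protein of young neurons (-1.07), Zim1, an imprinted zinc finger gene (-1.04), Gabrb1, a GABA-A receptor subunit (-1.02), and Slc40a1, the iron exporter ferroportin (-1.01). The fall of Ndnf exceeded that of Epha3 by 0.25 on the log2 scale, while these 5 genes lay within 0.093 of each other. In all, 7 genes were at least 2-fold lower and 6 at least 2-fold higher in mean signal.

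**Figure D2:**
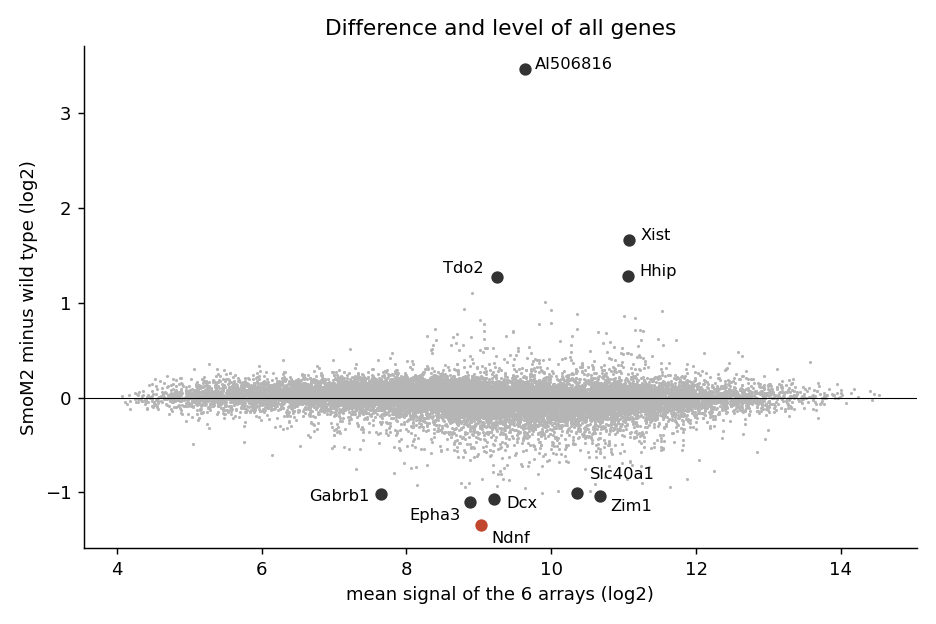
Each grey point is 1 of 19938 genes, with its mean signal over 6 arrays (log2) on the horizontal axis and SmoM2 minus wild type (log2) on the vertical axis, and named genes are marked. Ndnf (red), at a mean of 9.03 and a difference of -1.35, is the lowest point of the plot, below Epha3 at -1.10.

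The difference was also set beside genes with a signal like that of Ndnf. Of the other genes, 4098 had a mean within 0.5 of it on the log2 scale, and their median absolute difference was 0.0753. The largest fall among these 4098 was that of Epha3 and the largest rise that of Tdo2, an enzyme that degrades tryptophan (1.28).

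Rank was also taken from the distance between the groups. Among genes lower in SmoM2, the gap of 1.10 between the lowest wild type and the highest SmoM2 array of Ndnf was the widest, followed by Gabrb1 (0.93) and the spleen homeobox gene Tlx1 (0.80). In either direction it ranked 3, after AI506816 (2.49) and Hhip (1.18).

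Ndnf was lower in each of the 9 pairs of a SmoM2 and a wild type array, by 1.10 to 1.65 on the log2 scale (2.15-fold to 3.14-fold). Its rank in a pair depended on the wild type array. Against wild type 3 it was the largest decrease of all genes in each pair, with differences of -1.50, -1.14 and -1.29 for SmoM2 1 to 3. Against wild type 1 its ranks were 3, 7 and 6, with differences of -1.65, -1.30 and -1.44. Against wild type 2 its ranks were 10, 5 and 25, with differences of -1.46, -1.10 and -1.25.

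The genes that fell further than Ndnf in a pair changed from pair to pair. There were 34 of them, and no gene was ahead of Ndnf in more than 4 of the 9 pairs. The Y-linked Eif2s3y was ahead in 4 pairs, all of them with wild type 1 or 2, the arrays of higher Y-linked signal. The microRNA gene Mir377 was ahead in 3, and Epha3, the glutamate receptor subunit Gria2 and the nuclear RNA Malat1 in 2 each. Of the 24 genes ahead of Ndnf for SmoM2 3 against wild type 2, 14 have a symbol that begins with Mir. The share of such symbols over all genes was not taken, so nothing is read from this count.

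**Figure D3:**
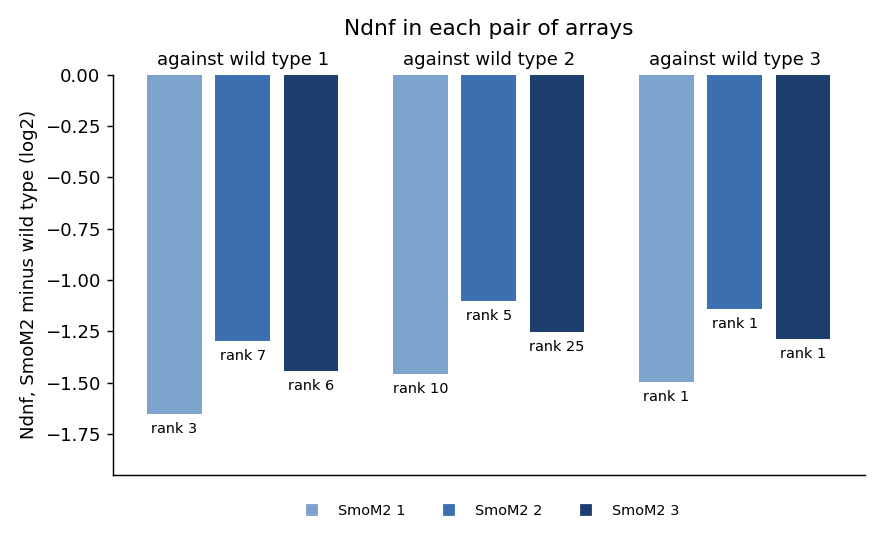
Bars show the Ndnf difference (log2, SmoM2 minus wild type, vertical axis from 0) for each SmoM2 array (shade) against each wild type array (group of bars), with its rank among decreases of all genes printed below. All 9 bars are negative, from -1.10 to -1.65, and rank 1 occurs in the 3 pairs with wild type 3.

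The difference stayed close to its value whichever array was left out. Leaving out wild type 1, 2 or 3 gave -1.29, -1.39 and -1.37. Leaving out SmoM2 1, 2 or 3 gave -1.25, -1.43 and -1.36. Ndnf ranked 1 among decreases in each of these 6. Against wild type 3 alone it was -1.31, and with a covariate for Y-linked signal -1.24, again at rank 1, and the next largest falls were then Bves, a membrane protein of the Popeye family (-1.02), and Gabrb1 (-0.95). Without wild type 3, the array most like the SmoM2 arrays in Y-linked signal, the runner-up was Eif2s3y at -1.34, close to Ndnf.

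Flrt2, a membrane protein with leucine-rich repeats and a fibronectin type III domain that binds Unc5 receptors, had the pattern most like that of Ndnf over the arrays. Likeness was taken first as Pearson's r of log2 signals over 6 arrays, which share the group difference, so high values are common among genes with separated groups. Of 19937 other genes 247 had an r above 0.95. Flrt2 stood at 11.51, 11.35 and 11.40 in wild type and at 10.67, 10.80 and 10.77 in SmoM2 (r = 0.998). Like Ndnf it was highest on wild type 1 and lowest on SmoM2 1, and within groups, after each group mean was taken out, its r with Ndnf was 0.93. Flrt2 was chosen by r over these same arrays, so its r within groups is no separate support. The level of Flrt2 fell by less, 0.67 on the log2 scale.

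The other genes of highest r moved little. They were Plppr1, a membrane protein of neurons (r = 0.997, log2 difference -0.41), Plec, the cytoskeletal linker plectin (r = 0.996, -0.22), Gab2, a signalling adaptor (r = 0.996, -0.22), and Ssbp3, a cofactor of LIM-domain transcription complexes (r = 0.996, -0.077). Their order over the arrays resembled that of Ndnf while the differences were smaller, since r takes no account of size. Each was likewise highest on wild type 1 and lowest on SmoM2 1. Within groups their r with Ndnf was 0.91, 0.90, 0.91 and 0.97 in the order named, so these traits do not set Flrt2 apart.

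Measured by size as well, the genes most like Ndnf were among those next to it in rank, though Zim1 was not among the 5 nearest. The mean absolute distance of values centred on each gene's mean was 0.16 for Dcx, 0.17 for Gabrb1, 0.17 for Slc40a1, 0.17 for Epha3 and 0.17 for Nefm, a neurofilament subunit, where the median gene was at 0.68. Dcx stood at 9.83, 9.86 and 9.53 in wild type and 8.43, 8.90 and 8.67 in SmoM2. Like Ndnf, Dcx was lowest on SmoM2 1 and highest within SmoM2 on SmoM2 2. Nefm and the 5 genes of highest r shared that order, so it does not set Dcx apart. Within groups the r with Ndnf was 0.80 for Nefm, 0.77 for Dcx, 0.66 for Slc40a1, 0.58 for Gabrb1 and 0.28 for Epha3. These are descriptions over 6 arrays. The distance depends largely on the size of the fall, the value by which Ndnf was chosen, so it is no separate support.

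**Figure D4:**
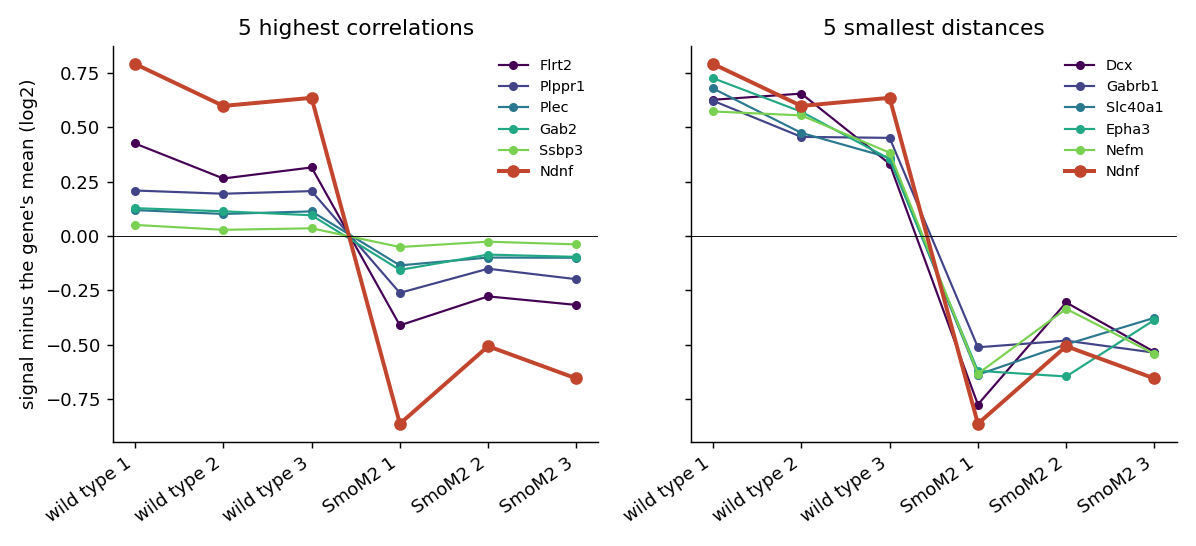
Signals centred on each gene's mean (log2, vertical axis) on the 6 arrays (horizontal axis) are shown for Ndnf (red) with the 5 genes of highest r (left) and of smallest distance (right), and lines join points of a gene only to guide the eye. On the left the genes follow Ndnf at smaller amplitude, as Flrt2 does with a difference of -0.67, and on the right Dcx, Gabrb1, Slc40a1, Epha3 and Nefm come near its amplitude.

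None of the 6 nearest measured neighbours of Ndnf on the chromosome passed in limma. Over all genes only 0.983% passed, so this count says little. By the gene order of RefSeq (assembly GRCm38.p6), the nearest measured genes on one side were Tnip3, an inhibitor of NF-kB signalling (log2 difference 0.11, SE 0.08), Qrfprl (-0.048, SE 0.09) and Gm8479 (0.054, SE 0.06). On the other side they were 4930544G11Rik (0.060, SE 0.07), Mad2l1 of the spindle checkpoint (0.094, SE 0.07) and the vomeronasal receptor Vmn1r32 (0.068, SE 0.08). Over the 6, limma gave an adjusted p from 0.720 for Mad2l1 to 0.917 for Qrfprl, and the lowest unadjusted p was 0.198, for Mad2l1. Tnip3, Gm8479, 4930544G11Rik and Vmn1r32 had wild type means between 5.94 and 7.36, close to or not far above the receptor genes given before. Qrfprl, with means of 7.82 in wild type and 7.77 in SmoM2, was also below the 95th percentile of receptor gene means (8.05).

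Of the other secreted neurotrophic factors, 1 passed in limma, and it rose. Over all genes 196 passed in limma (0.983%), 65 of them higher (0.326%), and the median log2 difference was 0.0018. Of 16 factors measured, 1 rose and 15 did not pass, with a median of 0.028. Among those 15, Ptn was lower without overlap of the groups (-0.28, adjusted p = 0.191), as were 10.1% of all genes. Bdnf was higher without overlap (0.23, adjusted p = 0.251). The riser was Gdnf, which attracts and sustains enteric neuron precursors through the receptor Ret. It stood at 10.35, 10.22 and 10.27 in wild type and at 10.64, 10.85 and 10.84 in SmoM2, without overlap and opposite in direction to Ndnf (log2 difference 0.49, SE 0.08, adjusted p = 0.0247). Gdnf passed only when the array left out was wild type 3 or SmoM2 1. For wild type 1 and 2 the adjusted p was 0.096 and 0.103, and for SmoM2 2 and 3 it was 0.0502 and 0.153.

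Among receptors for such factors 3 of 15 fell, with a median of -0.086, where 0.657% of all genes were called lower. They were Lifr, the receptor for leukaemia inhibitory factor (1.60-fold lower, adjusted p = 0.0301), Cntfr, the alpha receptor for ciliary neurotrophic factor (1.48-fold lower, adjusted p = 0.00755), and Ntrk3, the receptor for neurotrophin-3 (1.39-fold lower, adjusted p = 0.0199). None of these 3 passed without wild type 1 (adjusted p 0.147, 0.0528 and 0.0981) or without SmoM2 3 (0.14, 0.0653 and 0.129). Lifr also did not pass without wild type 2 (0.106) or SmoM2 1 (0.0858), nor Ntrk3 without wild type 2 (0.0807). Ret itself was at a log2 difference of 0.054 (SE 0.09, adjusted p = 0.904).

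Genes of FGF reception and feedback were set beside Ndnf because the human protein dampens FGF signalling. Of 18 such genes 1 was called, and it was lower (0.657% over all genes), with a median of -0.053. That gene was Flrt2 (1.59-fold lower, adjusted p = 0.00466), which passed whichever array was left out. Dusp6, a phosphatase induced by FGF signalling, had a log2 difference of 0.15 (SE 0.08, adjusted p = 0.594), Etv4 one of 0.10 (SE 0.07, adjusted p = 0.713) and Etv5 one of 0.011 (SE 0.09, adjusted p = 0.986), these 3 being named after their values were seen. Fgfr1, the receptor tied to the human disorder, had one of -0.10 (SE 0.07, adjusted p = 0.708).

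Of 31 mouse counterparts of genes linked to congenital hypogonadotropic hypogonadism, 1 rose and 1 fell, with a median of -0.013. At the same threshold 0.326% of all genes were called higher and 0.657% lower. Sema3a, a secreted guidance signal for axons and for neurons that make gonadotropin-releasing hormone, rose from 10.85, 10.94 and 10.80 to 11.57, 11.52 and 11.65 (log2 difference 0.72, SE 0.07, adjusted p = 0.00287) and passed whichever array was left out. Tac2, a tachykinin, was 1.66-fold lower (adjusted p = 0.0436) and passed in 1 of the 6 fits without an array (adjusted p from 0.0401 to 0.129).

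Of 17 secreted proteins with fibronectin type III domains, the feature that Ndnf carries, 1 fell and 16 did not pass, with a median of -0.047. The share called lower over all genes was 0.657%. Abi3bp, a matrix protein, was 1.54-fold lower (adjusted p = 0.0307) and did not pass without wild type 1 (0.154), wild type 2 (0.117), SmoM2 1 (0.113) or SmoM2 3 (0.18). Fn1, which encodes fibronectin, had a log2 difference of -0.51 (SE 0.14, adjusted p = 0.178) and Tnc, which encodes tenascin C, one of -0.43 (SE 0.13, adjusted p = 0.257).

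Several cell types of the stomach had lower marker signals in SmoM2, as Ndnf did, and in whole tissue fewer cells of a type and less RNA per cell cannot be told apart. Over all genes 0.657% were called lower. Of 17 epithelial markers 8 fell, with a median of -0.43, and their summed linear signal was 24443 to 27179 in wild type and 17704 to 19404 in SmoM2 (71.6%). Of 12 mesothelial markers 3 fell, Igfbp5, Bnc1 and Wt1, with a median of -0.22 and sums of 19917 to 20335 and 14792 to 16662 (78.7%). Of 21 markers of enteric neurons and glia 5 fell, Dcx, Nefm, Nefl, Dbh and Fabp7, with a median of -0.14 and sums of 21331 to 24229 and 17893 to 20373 (83.3%). A bright gene can carry such a sum. Without the member of largest linear change (Cldn6, Igfbp5 and Fabp7), the sums in SmoM2 were 73.6%, 88.1% and 86.5% of wild type. Igfbp5 alone went from a mean of 6376 to 3732. With or without these members the sums of the groups did not overlap in the 3 lists. Pan-neuronal Tubb3 was at -0.090 (SE 0.09, adjusted p = 0.807) and the mesothelial uroplakin Upk3b at -0.17 (SE 0.09, adjusted p = 0.541). Differences were above 0, without a call, for 0 of the epithelial, 3 of the mesothelial and 5 of the enteric markers. The largest of these enteric rises were Ednrb (0.32, adjusted p = 0.277) and Sox10 (0.11, adjusted p = 0.756). Which cells of the stomach made the Ndnf transcript was not measured, and the part of these cell types in its fall was not tested.

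Among these markers Nefm and Dbh, which makes noradrenaline, passed whichever array was left out (adjusted p up to 0.0244 and 0.0169). Dcx and Igfbp5 lost the call without SmoM2 3 (adjusted p = 0.0562 and 0.0504). None of the 8 epithelial genes passed without wild type 1 (lowest adjusted p = 0.0673, for Cdh1) or without SmoM2 3 (lowest 0.0732, for Cldn6). Bnc1, Nefl and Fabp7 also lost the call without wild type 1 (0.0853, 0.14 and 0.0876) and without SmoM2 3 (0.095, 0.0702 and 0.0655), Bnc1 and Nefl without wild type 2 (0.0654 and 0.0921), Fabp7 without SmoM2 1 (0.0665), and Wt1 without wild type 2, SmoM2 1 or SmoM2 3 (0.0827, 0.0665 and 0.0989).

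Mesenchymal markers moved both ways. Over all genes 0.326% were called higher and 0.657% lower. Of 16 smooth muscle genes 5 rose and 1, Des, fell, with a median of 0.20 and sums of 24938 to 26304 in wild type and 30957 to 34468 in SmoM2. Of 17 genes of mesenchyme and fibroblasts 4 rose and 1, Col1a2, fell, with a median of 0.031 and sums of 57788 to 59822 and 61379 to 64708. Without Foxf1, the member of largest linear change, the latter sums overlapped (46851 to 48753 and 47695 to 50457). Pdgfra, a receptor of gut mesenchyme, had a log2 difference of 0.018 (SE 0.07, adjusted p = 0.967). The sums in SmoM2 were 126% and 108% of wild type.

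These counts rested on few arrays. The 5 smooth muscle genes that rose became 1 without wild type 1 or without SmoM2 3, and 2 without wild type 2 or without SmoM2 1. Myocd, the coactivator of smooth muscle genes, passed whichever array was left out, while Acta2 lost the call in 5 of the 6 fits, Actg2, Myl9 and Des in 4 each and Synpo2 in 2 (highest adjusted p 0.219, 0.194, 0.15, 0.149 and 0.095). The 4 mesenchymal genes that rose became 1 without SmoM2 3, and 2 without wild type 1, wild type 2 or SmoM2 1. The forkhead factor Foxf2 passed in all 6 fits, while Lum lost the call in 1, Foxl1 and Col1a2 in 4 each and Foxf1 in 6 (highest adjusted p 0.0774, 0.108, 0.147 and 0.219). Among genes above the 75th percentile of probe set means 2 mesenchymal genes rose and 3 fell, and above the median 4 rose and 3 fell.

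Of the markers of endothelium (16 genes), erythroid cells (10), leukocytes (14) and interstitial cells of Cajal (4), the pacemaker cells of the gut, 0 passed in limma (0.983% over all genes). Their medians were -0.13, -0.20, -0.17 and -0.23. The summed signals in SmoM2 were 90.7%, 88.4%, 86.9% and 92.2% of wild type, without overlap of the groups, though the sums overlapped for erythroid cells without Hba-x and for interstitial cells without Kit, and their part in the fall of Ndnf was not tested.

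**Figure D5:**
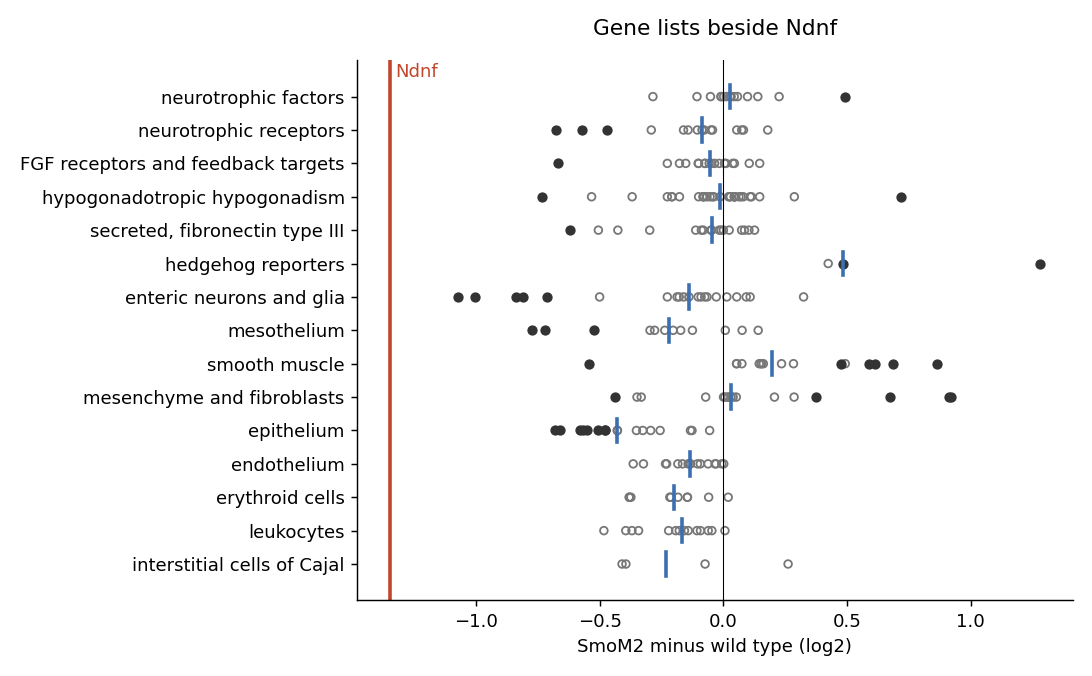
Points show SmoM2 minus wild type (log2, horizontal axis) for the members of 15 gene lists (rows), filled where limma's adjusted p was under 0.05, with the list median as a blue bar and Ndnf as a red line at -1.35. Ndnf was chosen as the largest fall of all genes, so no member could lie below it. The nearest are Dcx at -1.07 and Nefm at -1.01 among enteric neurons and glia.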

How the data were processed

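Total RNA of E13.5 stomach was labelled with biotin for Affymetrix arrays, per the labels' protocols. The authors deposited log2 signals of 35556 probe sets. The submitters' processing notes name affy and RMA without versions. RMA equalises the arrays' distributions, so a change in total RNA would not show. Groups and replicate numbers came from sample titles. The number of arrays limits the precision. Platform annotation gave 21789 probe sets 1 gene symbol, and each of 19938 genes was represented by its brightest probe set.

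Groups were compared in R 4.3.3 by limma 3.58.1 (lmFit, then eBayes, Benjamini-Hochberg over all genes, threshold 0.05), tested on simulated data. With 3 arrays a group, the smallest two-sided p of an exact permutation test is 0.1. Differences are SmoM2 minus wild type. SE is limma's moderated standard error.

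Ndnf and the lists were chosen with earlier results of these data known. Genes named are Ndnf, the next 5 decreases, the 5 genes nearest by r and by distance, 3 measured neighbours on each side, pathway genes, and list members by size of change. Others were chosen after their values were seen, among them genes ahead of Ndnf in array pairs, Tlx1, Bves, Ret, Fgfr1, Tubb3, Upk3b, Ednrb, Sox10 and Pdgfra. Same-numbered arrays were checked for pairing (correlations of deviations -0.10, 0.52 and 0.065), and the numbers were not taken to pair samples.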

Additional observations from a re-analysis of the deposited data

How the results depend on the processing

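The Ndnf difference kept its direction in all 20 alternatives, from -1.43 (without SmoM2 2) to -1.24 (Y-linked covariate), each within 1 SD of the value reported. The replicate block, the filter at the median, the intensity trend and robust eBayes could not move this difference by construction. Nor could averaging probe sets or keeping each as its own row, since Ndnf has 1 probe set. These settings all gave -1.35. The difference was -1.34 after repeated quantile normalization and -1.29 with centring on the 75th percentile. Ndnf ranked 1 among decreases in 17 of 19 alternatives. The replicate block, the median filter, the trend and robust eBayes could not lower that rank. The rank of Ndnf was 4 with array weights, whose default estimate did not converge, and 2 with gene-by-gene weights, behind Gria2 in each case. Both weightings count SmoM2 3 and wild type 1 most. Above the 75th percentile of probe set means (10.11) Ndnf was not among the genes tested.

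The count of genes called moved more. From 196 it went to 83 with centring on the 75th percentile (36 higher and 47 lower, against 65 and 131), 336 with an intensity trend, 4110 and 1854 with the 2 kinds of weights, 22 with the Y-linked covariate and 8 with wild type 3 alone. It ran from 32 to 247 when 1 array was left out, with 32 without SmoM2 3, 51 without wild type 1, 62 without wild type 2 and 80 without SmoM2 1. With the replicate number as a block it was 698 and the Ndnf difference -1.35, although not every array correlated best with its own number. Gene-by-gene weights and wild type 3 alone were added after seeing the data. Against wild type 3 alone, 1 array is assumed to vary like the SmoM2 arrays, from which all the spread comes. Missed calls there (Flrt2 at an adjusted p of 0.146, Sema3a and Foxf2 at 0.0854, Nefm at 0.0879, Dbh at 0.105) therefore say little about the genes. With the Y-linked covariate Flrt2 had an adjusted p of 0.107, while Nefm (0.0356) and Dbh (0.0438) passed. The causes of these shifts were not tested.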
